A study of Homo sapiens with 10 samples.

Results

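The genes described here are 304 expressed antisense RNA genes of VCaP cells, among 59386 genes in the count tables. A gene was taken when its symbol ended in -AS and a number and it had at least 10 raw counts in each of the 2 control libraries, and *IGF1R-AS1* and the SNHG genes were left out. Of 1539 genes with such a symbol, 305 reached that count before *IGF1R-AS1* was left out and 1234 did not. VCaP is an established prostate cancer line that expresses the ERG factor. Polyadenylated RNA was sequenced with strand information 72 h after transfection, in 10 libraries that form 5 groups of 2. The groups were control cells, cells given 30 pmol of siRNA A or siRNA B against *SMARCA4*, and cells given 30 pmol of siRNA A or siRNA C against *SMARCA1*. Both targets encode chromatin remodelers that the study examined beside *IGF1R-AS1*. All groups were the same cell line in culture, and the labels do not say whether the libraries of a group came from separate cultures. The count columns of the controls are headed siNC, the name of the control siRNA in the study, whose dose and sequence are not given in the sources used here. The p-values below therefore measure only the spread between these libraries, which may be technical.

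An antisense RNA gene is named after a gene that lies opposite to it on the other strand. Some antisense RNAs start next to the promoter of the sense gene and run away from it, others run across its exons, and individual cases have been linked to silencing or to activation of the sense gene, while many have no known role. *SMARCA4* (BRG1) encodes an ATPase of the SWI/SNF complexes, which move and evict nucleosomes at promoters and enhancers. *SMARCA1* (SNF2L) encodes an ATPase of the ISWI complexes, which space nucleosomes.

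Library totals lay between 23898545 and 34667965 counts, so that 3 counts of a gene corresponded to 0.0865 to 0.126 CPM, the counts of a gene scaled to a common library size. The 304 genes held between 0.18% and 0.222% of the counts of a library. *SMARCA4* was at 242 and 268 CPM in the controls and at 13.3 to 25.2 CPM in *SMARCA4* knockdown, and *SMARCA1* was at 32.3 and 31.5 CPM in the controls and at 1.75 to 3.40 CPM in *SMARCA1* knockdown. *SMARCA1* itself was higher in *SMARCA4* knockdown, by 1.07 on the log2 scale (adjusted p = 0.001, edgeR). All 10 prostate epithelial markers checked were present, the lowest being *KLK3* at 56.9 to 100.5 CPM, while of 9 markers of blood cells, fibroblasts and endothelium *PTPRC*, *CD3E*, *CD68* and *CDH5* stayed at or below 0.069 CPM, *COL1A1* was at 4.14 to 17.8 CPM, *VWF* at 1.21 to 2.96 CPM and the other 3 were below 1 CPM. Both knockdowns carried an interferon response: all 29 interferon response genes tested, of 30 listed, were higher than control in each, and their summed level was 403.4 and 412.0 CPM in the controls, 17276 to 46281 CPM in *SMARCA4* knockdown and 24917 to 48082 CPM in *SMARCA1* knockdown. Its part in the changes of the antisense genes was not tested.

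In the annotation of the count tables (hg38), 230 of the 304 genes shared exon bases with the gene of their name, 38 lay within or across its introns without sharing exon bases, 30 were placed head to head beside it without overlap, with a median gap of 61 bases, and 1 lay tail to tail. For the other 5 the tables held no gene of the sense name. The median exon length was 4192 bases in 5 exon blocks. Because sense and antisense exons overlap, the separation of the strands was estimated on other genes. Of 438 genes lying wholly inside exons of an opposite-strand gene with at least 1000 counts, 404 were below 10% of that gene per kilobase, and the median was 0.577%. At this median rate, carried-over sense reads would amount to more than 10% of the counts of 12 of the 230 overlapping antisense genes. The rate varied between genes. It also counts any transcripts made by the enclosed genes themselves, so it can overstate the carry-over. At its 75th percentile, 1.622%, this number would be 34, and at its 90th, 5.821%, it would be 76. The share is given below, as carried-over reads, beside some of the genes it touches.

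The control level ran from 0.395 to 280 CPM with a median of 2.04 CPM, and 222 of the 304 genes averaged 1 CPM or more across the 10 libraries. A few genes held much of the signal, with 41.7% of the control counts in the top 10. Per kilobase of exon, the antisense gene stood at a median of 12.7% of its sense gene over 270 pairs. It was above its sense gene in 46 pairs and below 1% of it in 26.

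**Figure D1:**
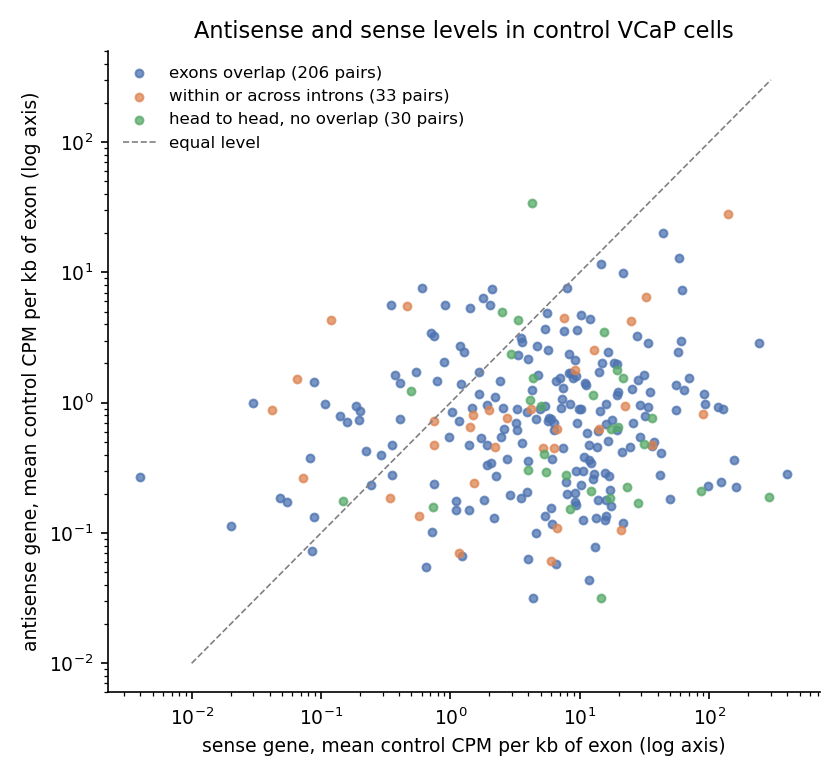
Mean control level per kilobase of exon of each antisense gene (vertical, log axis) against its sense gene (horizontal, log axis), in CPM per kb, with 1 point per pair coloured by how the genes lie to each other (the tail-to-tail pair is not drawn). Most points sit under the line of equal level, and 46 of the 270 pairs have the antisense gene above the sense gene.

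The 8 genes with the highest control level per kilobase were *FGD5-AS1*, *SSTR5-AS1*, *GATA2-AS1*, *MRPL20-AS1*, *PITPNA-AS1*, *OIP5-AS1*, *WAC-AS1* and *ELF3-AS1*. The first of them, *FGD5-AS1* (chr3:14920347-14948424, minus strand), was at 289.7 and 269 CPM in the controls, 193, 234, 171 and 207 CPM in *SMARCA4* knockdown, and 153, 232, 154 and 162 CPM in *SMARCA1* knockdown. All knockdown libraries were below both controls, and its sense gene *FGD5*, a gene of endothelium, did not pass the count filter. The log2 fold change of *FGD5-AS1* was -0.48 ± 0.16 (SE, adjusted p = 0.032) in *SMARCA4* and -0.68 ± 0.16 (SE, adjusted p = 0.0058) in *SMARCA1* knockdown. The first call was lost without either control library or *SMARCA4* siRNA A replicate 1 or *SMARCA4* siRNA B replicate 1 or either *SMARCA1* siRNA C library (adjusted p = 0.052 to 0.23) or with siRNA A alone (-0.39, adjusted p = 0.13) and the second without control replicate 1 (adjusted p = 0.07).

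*GATA2-AS1*, which lies within or across introns of the gene for the transcription factor GATA2, was at 82.6 and 78.99 CPM in the controls, 84.5, 102, 76.9 and 84.1 CPM in *SMARCA4* knockdown, and 81.8, 73.2, 75.5 and 71.6 CPM in *SMARCA1* knockdown, and its groups overlapped. Its log2 fold changes were 0.10 (adjusted p = 0.47) in *SMARCA4* and -0.10 (adjusted p = 0.47) in *SMARCA1* knockdown. *MRPL20-AS1*, opposite a gene of the mitochondrial ribosome, was at 50.02 and 51.6 CPM in the controls, 46.2, 49.7, 51.4 and 46.3 CPM in *SMARCA4* knockdown, and 70.8, 58.8, 62.5 and 57.5 CPM in *SMARCA1* knockdown, with the *SMARCA1* knockdown libraries above all others. Between the knockdowns it differed by -0.37 ± 0.09 (SE, adjusted p = 0.0095) on the log2 scale, a call lost without *SMARCA4* siRNA B replicate 2 or *SMARCA1* siRNA C replicate 1 (adjusted p = 0.054 to 0.057). Against control its log2 fold change in *SMARCA1* knockdown was 0.30 (adjusted p = 0.045), a call lost without either control library or either *SMARCA1* siRNA C library (adjusted p = 0.076 to 0.18), with siRNA C alone (0.24, adjusted p = 0.14), with only the knockdown and control libraries (0.071), with no filter on low counts (0.091) or with upper quartile scaling (0.082).

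*WAC-AS1* was at 33.7 ± 1.44 CPM (SD, n = 2) in the controls, 29.9 ± 2.37 CPM (n = 4) in *SMARCA4* and 37.1 ± 5.04 CPM (n = 4) in *SMARCA1* knockdown, and neither knockdown passed the test against control. Between the knockdowns it was called lower in *SMARCA4* knockdown. That call was lost with no filter on low counts (-0.29, adjusted p = 0.057, edgeR). It was also lost without either control, either *SMARCA1* siRNA C library, *SMARCA4* siRNA A replicate 1 or either *SMARCA4* siRNA B library (-0.23 to -0.31). *ELF3-AS1*, opposite the gene of an epithelial ETS factor, was at 43.7 and 41.02 CPM in the controls, 42.4, 37.2, 50.04 and 40.5 CPM in *SMARCA4* knockdown, and 51.9, 38.3, 54.5 and 54.5 CPM in *SMARCA1* knockdown, while *ELF3* was at 54.8 and 59.1 CPM in the controls, 179, 143, 168 and 113 CPM in *SMARCA4* knockdown, and 148, 99.1, 147 and 149.9 CPM in *SMARCA1* knockdown. The antisense groups overlapped and every knockdown library of *ELF3* was above both controls. The antisense to sense ratio of this pair changed by -1.39 ± 0.12 (SE, adjusted p = 3.2e-06) in *SMARCA4* and -1.01 ± 0.12 (SE, adjusted p = 4.8e-05) in *SMARCA1* knockdown, on the log2 scale (limma). *PITPNA-AS1*, opposite the gene of a phosphatidylinositol transfer protein, was at 7.28 and 6.799 CPM in the controls, 3.597, 5.06, 2.26 and 3.02 CPM in *SMARCA4* knockdown, and 3.797, 3.900, 2.53 and 2.19 CPM in *SMARCA1* knockdown. All knockdown libraries were below the controls, with log2 fold changes of -1.06 ± 0.18 (SE, adjusted p = 0.001) and -1.22 ± 0.18 (SE, adjusted p = 0.00053).

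The count threshold cuts a continuum. Just inside it were *EXOSC10-AS1* with 10 and 22 control counts, *ZNF436-AS1* with 10 and 11, and *DHDDS-AS1* with 10 and 13. Just outside were *TP73-AS3* with 9 and 10, *EMC1-AS1* with 18 and 9, and *NFYC-AS1* with 9 and 13.

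In *SMARCA4* knockdown most antisense genes that changed against control were lower. Of the 304 genes, 102 (33.6%) passed the test, called here when the adjusted p was under 0.05. Of these 25 (8.22% of the 304) were higher and 77 (25.3%) lower. The share called was 45.1% of all 16899 genes tested (22.8% higher and 22.3% lower) and 47.6% of those with at least 10 counts in each control (22.5% higher and 25.1% lower). Beside the latter, the share of lower antisense genes was much the same and the share of higher ones was smaller. The median log2 fold change was -0.23 over the antisense genes and 0.00 over all genes tested. The control counts chose these genes, and all of them passed the filter on low counts through the control group alone, so the counts against control are a description. With genes taken by a mean of at least 10 counts over all 10 libraries, 31 of 341 were higher and 74 lower. Without control replicate 1 the count of called genes was 49 (17 higher, 32 lower) and without control replicate 2 it was 55 (20 and 35). In RNA from whole cultures, fewer expressing cells and less RNA per cell cannot be told apart.

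Against control, 70 genes (17 higher, 53 lower) were called with siRNA A alone and 100 (33 and 67) with siRNA B alone, beside 33.2% (17.4% higher, 15.8% lower) and 45.0% (23.0% and 21.9%) of all genes tested. Called in the mean and with each siRNA in 1 direction, 16 genes were higher and 38 lower, beside 14.8% and 12.9% of all genes tested. In 43 genes the 4 *SMARCA4* knockdown libraries were all above both controls and in 109 all below, and in 152 they overlapped. Over all genes tested, 58.5% did not overlap. By position, 17 were called higher and 58 lower among the 230 genes with exon overlap, 4 and 12 among the 38 in introns, and 4 and 6 among the 30 head to head.

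Other genes with at least 10 counts in each control were set beside the antisense genes. Within the middle range of antisense levels, 0.913 to 4.79 CPM, 27.6% of 152 antisense genes and 38.7% of 2500 other genes were called. Of the 152 antisense genes 7.89% were called higher and 19.7% lower, against 18.2% and 20.5% of the 2500 other genes. Of 80 such genes named as divergent transcripts (-DT), at any level, 26.2% were called (8.75% higher, 17.5% lower). Of 130 such LINC genes, also at any level, 32.3% were called (9.23% and 23.1%).

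**Figure D2:**
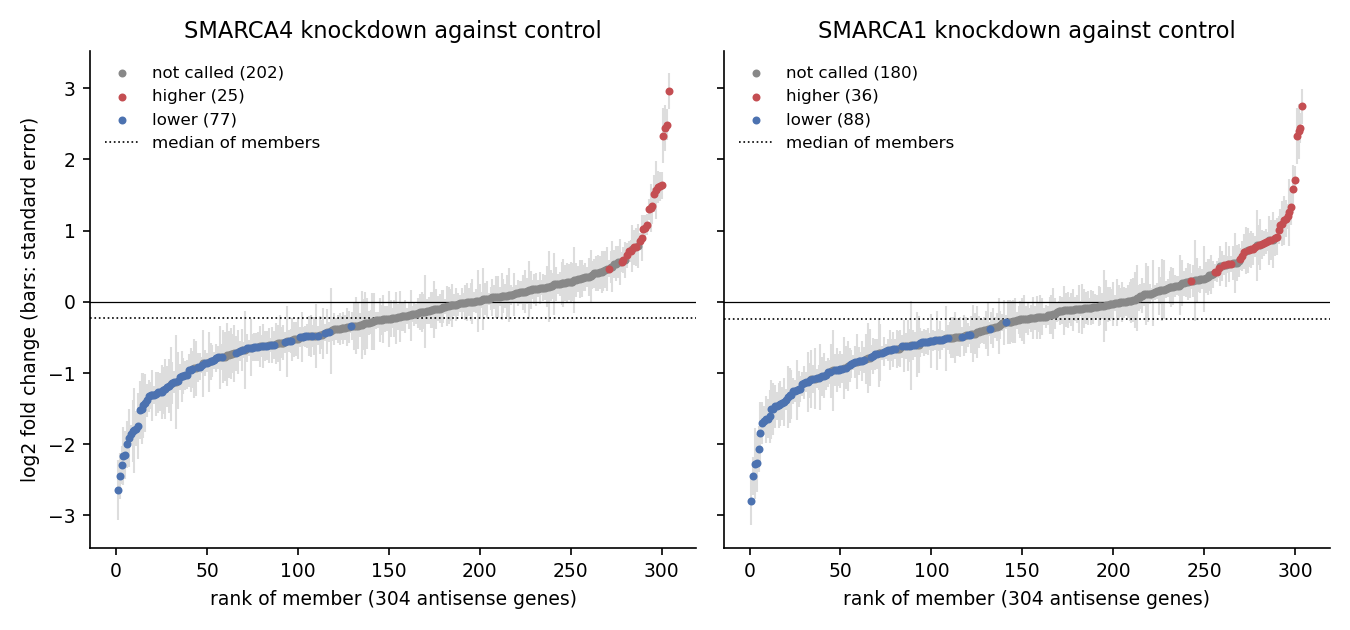
Log2 fold change against control of the 304 antisense genes (vertical, bars are standard errors) by rank (horizontal), in *SMARCA4* knockdown and in *SMARCA1* knockdown, with called genes coloured. Called genes below the zero line outnumber those above it in both panels, 77 to 25 and 88 to 36.

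The genes described next are those with the largest changes that were called with both siRNAs and whose level averaged 1 CPM or more across libraries. The largest rise was that of *IRF1-AS1* (chr5:132410636-132488702, plus strand), whose exons share 2805 bases with *IRF1*, the gene of an interferon-induced transcription factor. *IRF1-AS1* was at 1.63 and 1.82 CPM in the controls, 13.1, 7.23, 18.1 and 17.7 CPM in *SMARCA4* knockdown, and 9.04, 9.46, 14.7 and 14.5 CPM in *SMARCA1* knockdown, the values of a knockdown being given here and below as siRNA A replicates 1 and 2, then siRNA B or C replicates 1 and 2. Every knockdown library was above both controls. The log2 fold change was 2.96 ± 0.25 (SE, adjusted p = 2.1e-05) in *SMARCA4* and 2.75 ± 0.25 (SE, adjusted p = 5e-05) in *SMARCA1* knockdown. *IRF1* was at 13.6 and 13.6 CPM in the controls, 132, 64.98, 183 and 167 CPM in *SMARCA4* knockdown, and 109, 93.7, 191 and 191 CPM in *SMARCA1* knockdown, with the same order of the *SMARCA4* libraries. At the median rate given above, carried-over *IRF1* reads would be 1.43% of the counts of *IRF1-AS1*, and 14.5% at the 90th percentile rate.

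*SCAMP1-AS1* (chr5:78342365-78360507, minus strand) starts 103 bases from *SCAMP1*, the gene of a membrane protein of vesicle trafficking, and runs away from it. It was at 1.59 and 1.19 CPM in the controls, 6.71, 5.19, 11.1 and 9.23 CPM in *SMARCA4* knockdown, and 6.400, 5.04, 10.2 and 9.65 CPM in *SMARCA1* knockdown. Its lowest knockdown library was above the higher control. The log2 fold change was 2.49 ± 0.21 (SE, adjusted p = 2.4e-05) in *SMARCA4* and 2.44 ± 0.21 (SE, adjusted p = 4.3e-05) in *SMARCA1* knockdown. *SCAMP1* was at 57.96 and 46.9 CPM in the controls, 48.1, 33.6, 55.4 and 58.9 CPM in *SMARCA4* knockdown, and 38.1, 54.03, 51.7 and 52.2 CPM in *SMARCA1* knockdown, and its groups overlapped. The ratio of *SCAMP1-AS1* to *SCAMP1* rose by 2.56 ± 0.22 (SE, adjusted p = 3.1e-06) and 2.49 ± 0.22 (SE, adjusted p = 5.1e-06) on the log2 scale. The stretch between the starts is shown because one side of it changed and the other was not called.

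The head-to-head promoters of *SCAMP1-AS1* and of *SSTR5-AS1*, the latter chosen for display after its values were seen, are printed from RefSeq (GRCh38.p14) 5′ to 3′ on the antisense gene's strand, in the part outside exons of coding genes, with the bases between the opposite starts in capitals.
*SCAMP1-AS1* promoter, chr5:78360492-78360610, minus strand: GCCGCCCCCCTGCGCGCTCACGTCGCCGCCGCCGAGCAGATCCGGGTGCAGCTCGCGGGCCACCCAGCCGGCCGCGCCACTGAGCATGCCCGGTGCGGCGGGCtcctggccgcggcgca
*SSTR5-AS1* promoter, chr16:1078682-1078825, minus strand: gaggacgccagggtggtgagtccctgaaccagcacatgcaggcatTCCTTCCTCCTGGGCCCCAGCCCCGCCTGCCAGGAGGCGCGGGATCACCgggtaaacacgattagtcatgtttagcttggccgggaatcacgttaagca

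*SSTR5-AS1* (chr16:1064093-1078731, minus strand), next to the gene of somatostatin receptor 5 with 49 bases between the starts, moved together with its neighbour. It was at 136 and 140.5 CPM in the controls, 329, 298, 413 and 329 CPM in *SMARCA4* knockdown, and 199.8, 145, 218 and 236 CPM in *SMARCA1* knockdown, and *SSTR5* at 5.39 and 6.21 CPM in the controls, 16.7, 13.1, 27.9 and 20.3 CPM in *SMARCA4* knockdown, and 11.2, 6.74, 12.4 and 11.9 CPM in *SMARCA1* knockdown. Every knockdown library of both genes was above its controls, those of *SMARCA4* knockdown the most. *SSTR5-AS1* rose by 1.302 ± 0.15 (SE, adjusted p = 0.00011) on the log2 scale in *SMARCA4* knockdown and by 0.52 ± 0.14 (SE, adjusted p = 0.014) in *SMARCA1* knockdown, the latter call lost without either control library (adjusted p = 0.067 to 0.087) or with siRNA A alone (0.32, adjusted p = 0.15). *SSTR5* rose by 1.71 ± 0.23 (SE, adjusted p = 0.00026) and 0.85 ± 0.22 (SE, adjusted p = 0.011). Between the knockdowns *SSTR5-AS1* differed by 0.79 ± 0.12 (SE, adjusted p = 0.00082).

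*SOCS2-AS1* (chr12:93542022-93571768, minus strand) lies opposite *SOCS2*, a feedback inhibitor of cytokine and growth hormone signaling. It was at 0.418 and 0.483 CPM in the controls, 1.502, 1.85, 3.802 and 3.47 CPM in *SMARCA4* knockdown, and 0.976, 0.528, 1.06 and 1.59 CPM in *SMARCA1* knockdown. The *SMARCA4* libraries were above both controls and siRNA B gave the higher values. Its log2 fold change was 2.44 ± 0.33 (SE, adjusted p = 0.00026) in *SMARCA4* and 1.14 ± 0.35 (SE, adjusted p = 0.022) in *SMARCA1* knockdown, the latter call lost without either control library or *SMARCA1* siRNA A replicate 1 or *SMARCA1* siRNA C replicate 2 (adjusted p = 0.058 to 0.12) or with siRNA A alone (0.74, adjusted p = 0.18). *SOCS2* rose by 2.16 ± 0.17 (SE, adjusted p = 1.3e-05) and 1.18 ± 0.16 (SE, adjusted p = 0.00039).

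*PAXIP1-AS2* lies opposite *PAXIP1*, whose protein works with histone methyltransferases and in the DNA damage response. It was at 12.1 and 11.1 CPM in the controls, 33.1, 22.6, 46.4 and 44.98 CPM in *SMARCA4* knockdown, and 14.8, 22.9, 28.9 and 28.5 CPM in *SMARCA1* knockdown, all knockdown libraries above the controls, and *PAXIP1* at 71.7 and 70.9 CPM in the controls, 66.8, 69.2, 54.2 and 55.2 CPM in *SMARCA4* knockdown, and 50.6, 70.8, 60.7 and 64.4 CPM in *SMARCA1* knockdown. *PAXIP1-AS2* rose by 1.62 ± 0.20 (SE, adjusted p = 0.00017) in *SMARCA4* and 1.01 ± 0.20 (SE, adjusted p = 0.0024) in *SMARCA1* knockdown on the log2 scale, while *PAXIP1* had log2 fold changes of -0.23 (adjusted p = 0.17) and -0.21 (adjusted p = 0.19). The ratio rose by 1.83 ± 0.16 (SE, adjusted p = 2.7e-06) and 1.21 ± 0.16 (SE, adjusted p = 7.9e-05).

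Of the other large rises, *TTC39A-AS1* went from 1.099 ± 0.398 CPM (SD, n = 2) in the controls to 5.55 ± 2.08 CPM (n = 4) in *SMARCA4* and 5.92 ± 1.82 CPM (n = 4) in *SMARCA1* knockdown, with log2 fold changes of 2.33 (adjusted p = 0.00088) and 2.396 (adjusted p = 0.00083). *B3GALT5-AS1*, opposite the gene of a galactosyltransferase, was at 3.43 and 3.83 CPM in the controls, 9.92, 7.04, 16.5 and 13.6 CPM in *SMARCA4* knockdown, and 9.62, 7.596, 16.4 and 16.8 CPM in *SMARCA1* knockdown. Its knockdown libraries were all above the controls, with log2 fold changes of 1.64 (adjusted p = 0.00012) and 1.72 (adjusted p = 0.00013). *RUSC1-AS1* rose from 1.34 ± 0.361 CPM to 4.31 ± 1.41 CPM in *SMARCA4* knockdown, by 1.61 (adjusted p = 0.00033), and *C1RL-AS1*, opposite the gene of a complement C1r-like protease, from 1.19 ± 0.211 CPM to 3.42 ± 0.458 CPM, by 1.52 (adjusted p = 0.001). *RUSC1-AS1* and *C1RL-AS1* were also called in *SMARCA1* knockdown, at 1.08 (adjusted p = 0.0036) and 1.17 (adjusted p = 0.0047), calls lost without control replicate 1 (adjusted p = 0.05) and without control replicate 2 (adjusted p = 0.057) or with siRNA A alone (0.75, adjusted p = 0.076), respectively.

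The falls in *SMARCA4* knockdown included genes of several kinds. *C8orf34-AS1* was at 7.23 and 6.502 CPM in the controls, 1.19, 1.89, 0.896 and 1.65 CPM in *SMARCA4* knockdown, and 0.904, 1.58, 1.18 and 1.38 CPM in *SMARCA1* knockdown. Every knockdown library was below both controls, and the log2 fold changes were -2.29 ± 0.27 (SE, adjusted p = 0.00012) and -2.44 ± 0.27 (SE, adjusted p = 0.00013). *ZNF710-AS1* (chr15:90074512-90082207, minus strand), opposite a zinc finger gene, was at 14.01 and 13.5 CPM in the controls, 2.37, 5.88, 1.42 and 3.23 CPM in *SMARCA4* knockdown, and 2.31, 3.57, 1.28 and 1.41 CPM in *SMARCA1* knockdown. It was lower in every knockdown library than in the controls, and least so in *SMARCA4* siRNA A replicate 2. Its log2 fold changes were -2.15 ± 0.34 (SE, adjusted p = 0.00065) and -2.79 ± 0.35 (SE, adjusted p = 0.00022), while *ZNF710* rose by 0.46 ± 0.09 (SE, adjusted p = 0.003) and 0.50 ± 0.10 (SE, adjusted p = 0.0021).

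*VPS9D1-AS1* (chr16:89711856-89718165, plus strand) was the higher partner of its pair in control cells, at 1241% of *VPS9D1* per kilobase. It was at 13.3 and 13.2 CPM in the controls, 4.99, 5.97, 2.19 and 2.63 CPM in *SMARCA4* knockdown, and 6.400, 6.87, 5.79 and 6.08 CPM in *SMARCA1* knockdown. Both controls were above every knockdown library, and the 2 libraries of *SMARCA4* siRNA B were the lowest. Its log2 fold change was -1.86 ± 0.13 (SE, adjusted p = 9e-06) in *SMARCA4* and -1.07 ± 0.13 (SE, adjusted p = 0.00019) in *SMARCA1* knockdown. *VPS9D1* was at 2.09 and 1.97 CPM in the controls, 3.56, 3.62, 3.62 and 4.28 CPM in *SMARCA4* knockdown, and 2.46, 1.83, 2.43 and 3.03 CPM in *SMARCA1* knockdown and rose in *SMARCA4* knockdown by 0.89 ± 0.20 (SE, adjusted p = 0.0045).

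*MIF-AS1*, opposite the gene of the cytokine MIF, was at 1.71 and 1.71 CPM in the controls, 0.314, 0.66, 0.309 and 0.526 CPM in *SMARCA4* knockdown, and 2.75, 1.300, 1.09 and 0.599 CPM in *SMARCA1* knockdown. The *SMARCA4* libraries were below all others except *SMARCA1* siRNA C replicate 2, which was below one of them. Its log2 fold change in *SMARCA4* knockdown was -1.91 ± 0.41 (SE, adjusted p = 0.0039), and carried-over *MIF* reads would be 34.5% of its counts at the median rate and 348% at the 90th percentile rate, a part in this result that was not tested. *MIF* itself had a log2 fold change of -0.11 (adjusted p = 0.52). *PRRT3-AS1* was at 3.26 and 2.71 CPM in the controls, 0.629, 1.45, 0.556 and 0.491 CPM in *SMARCA4* knockdown, and 1.88, 0.975, 0.8 and 0.839 CPM in *SMARCA1* knockdown, all knockdown libraries below the controls, with log2 fold changes of -2.001 ± 0.33 (SE, adjusted p = 0.00092) and -1.45 ± 0.32 (SE, adjusted p = 0.0046), the latter call lost without control replicate 1 (adjusted p = 0.057) or with siRNA A alone (-1.05, adjusted p = 0.054).

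*FAM222A-AS1* fell from 2.73 ± 0.339 CPM (SD, n = 2) to 0.796 ± 0.164 CPM (n = 4) in *SMARCA4* knockdown, a log2 change of -1.78 (adjusted p = 0.00029). *ELFN1-AS1*, in the locus of a synaptic leucine-rich repeat protein, went from 5.49 ± 0.487 CPM to 2.11 ± 0.464 CPM and 2.51 ± 0.559 CPM in *SMARCA4* and *SMARCA1* knockdown, with log2 fold changes of -1.38 (adjusted p = 0.00089) and -1.13 (adjusted p = 0.0027). *ACVR2B-AS1* and *ACVR2B*, the gene of an activin receptor, were both lower. The antisense gene had log2 fold changes of -1.32 (adjusted p = 0.0011) and -0.95 (adjusted p = 0.0063), the latter call lost without control replicate 2 (adjusted p = 0.068), and the sense gene of -1.58 (adjusted p = 0.00067) and -1.49 (adjusted p = 0.001).

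**Figure D3:**
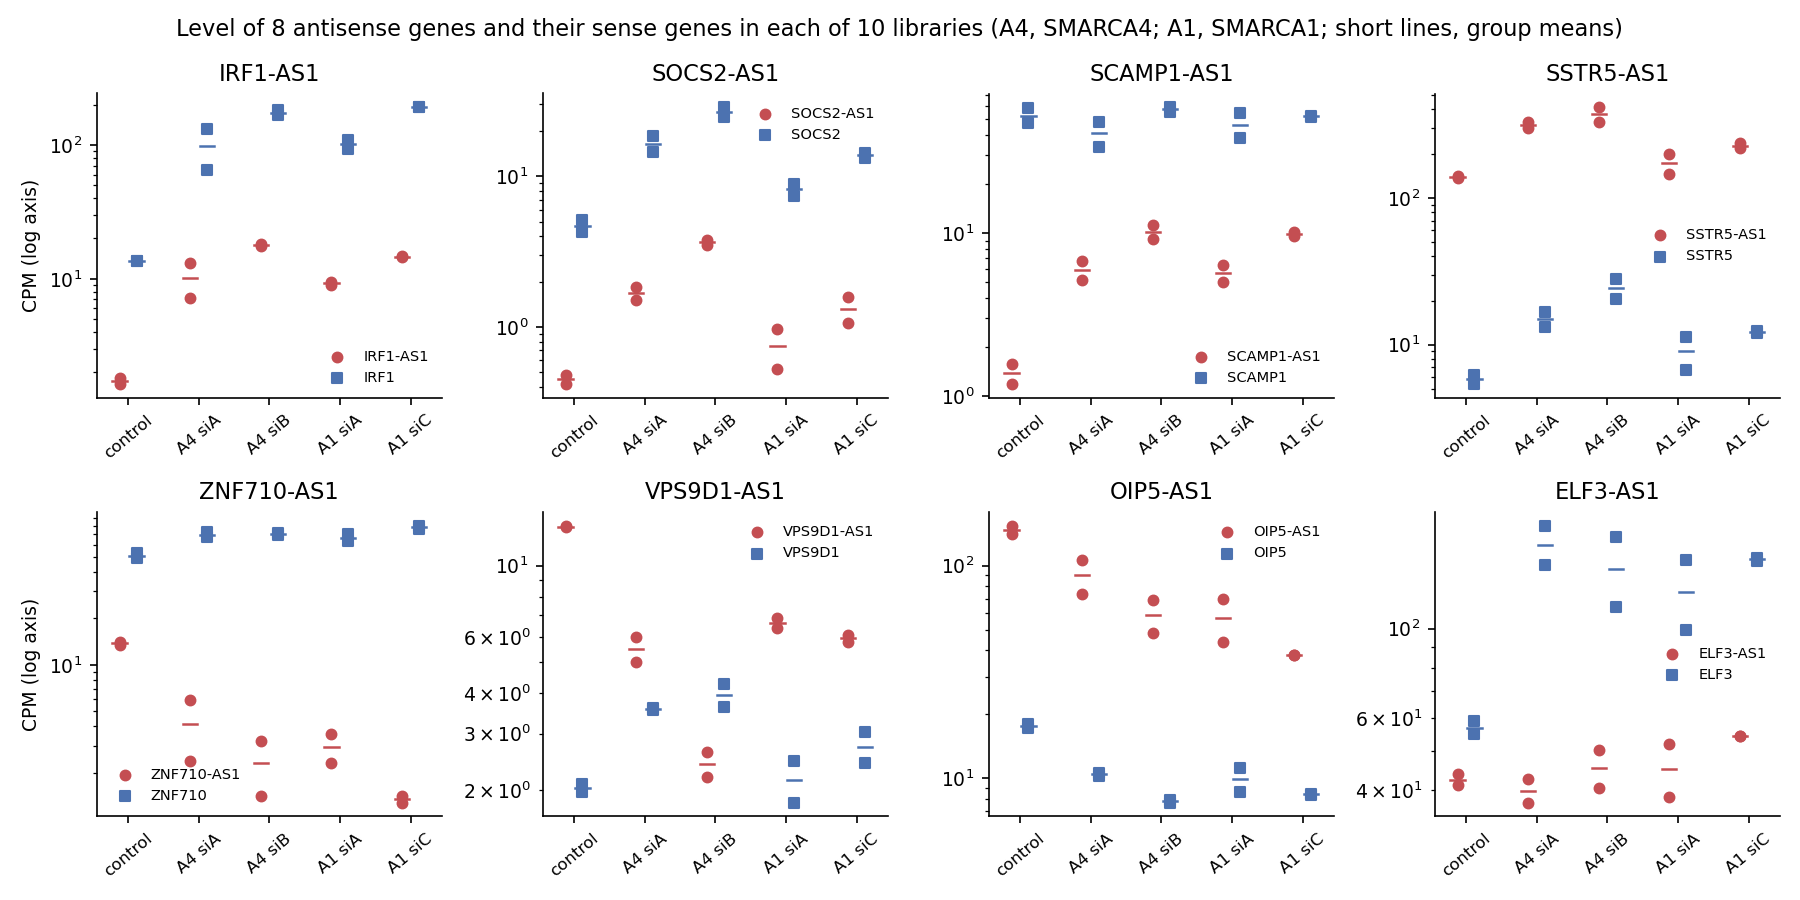
Level in CPM (vertical, log axis) of 8 antisense genes and their sense genes in each of the 10 libraries, grouped by siRNA (horizontal), with short lines at the group means. In the *SCAMP1-AS1* panel the antisense gene rises from 1.59 and 1.19 CPM in the controls to at least 5.04 CPM in every knockdown library while *SCAMP1* overlaps between groups.

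In *SMARCA1* knockdown, too, more antisense genes were lower than higher against control. Of the 304 genes, 124 (40.8%) were called, 36 higher (11.8%) and 88 lower (28.9%). The share called was 46.8% of all genes tested (23.8% higher and 23.0% lower) and 48.4% of those with at least 10 counts in each control (22.6% higher and 25.8% lower). The median log2 fold change was -0.24 over the antisense genes and 0.00 over all genes tested. With genes taken by a mean of at least 10 counts over all libraries, 47 of 341 were higher and 86 lower. Without control replicate 1 the count was 60 (17 higher, 43 lower) and without control replicate 2 it was 61 (19 and 42). This comparison shares its 2 control libraries with the one above, so the 2 sets of values are not independent.

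With siRNA A alone 86 genes (28.3%) were called, 30 higher (9.87%) and 56 lower (18.4%). With siRNA C alone 111 (36.5%) were called, 34 higher (11.2%) and 77 lower (25.3%). Over all genes tested the shares were 34.8% (18.5% higher, 16.3% lower) and 45.3% (23.8% and 21.5%). Called in the mean and with each siRNA were 21 higher and 46 lower genes, beside 16.5% and 13.5% of all genes tested. The 4 *SMARCA1* knockdown libraries were all above both controls in 49 genes, all below in 119, and overlapped in 136, and 58.2% of all genes tested did not overlap. By position, 27 were called higher and 68 lower among the 230 genes with exon overlap. The numbers were 4 and 13 among the 38 in introns, and 5 and 4 among the 30 head to head. In the middle level range, 39.5% of the antisense genes and 43.3% of the other genes were called, and 12.5% of 152 antisense genes were higher and 27.0% lower, against 19.2% and 24.1% of the 2500 other genes. Of the LINC genes 41.5% were called (9.23% higher, 32.3% lower), and of the -DT genes 25.0% (8.75% and 16.2%).

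The rises shared with the list above were those of *IRF1-AS1*, *SCAMP1-AS1*, *TTC39A-AS1* and *B3GALT5-AS1*. *DIP2C-AS1* (chr10:649948-669581, plus strand), within the introns of *DIP2C*, was at 0.502 and 0.632 CPM in the controls, 1.75, 0.912, 2.72 and 1.65 CPM in *SMARCA4* knockdown, and 2.35, 2.97, 3.84 and 2.43 CPM in *SMARCA1* knockdown. All knockdown libraries were above the controls and all those of *SMARCA1* knockdown were above 3 of the 4 of *SMARCA4* knockdown. Its log2 fold change was 2.33 ± 0.39 (SE, adjusted p = 0.0011) in *SMARCA1* and 1.57 ± 0.40 (SE, adjusted p = 0.0098) in *SMARCA4* knockdown, the latter call lost without either control library (adjusted p = 0.05 to 0.078) or with siRNA A alone (1.21, adjusted p = 0.066). *DIP2C* had log2 fold changes of -0.32 (adjusted p = 0.11) and 0.18 (adjusted p = 0.37), and the ratio rose by 2.54 ± 0.33 (SE, adjusted p = 7.7e-05) in *SMARCA1* knockdown.

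*CARD8-AS1*, opposite the gene of an inflammasome sensor, was at 2.13 and 2.49 CPM in the controls, 4.71, 3.804, 4.95 and 5.68 CPM in *SMARCA4* knockdown, and 4.59, 4.79, 5.54 and 6.59 CPM in *SMARCA1* knockdown, with all knockdown libraries above the controls. Its log2 fold changes were 1.203 ± 0.18 (SE, adjusted p = 0.00055) in *SMARCA1* and 1.04 ± 0.18 (SE, adjusted p = 0.0011) in *SMARCA4* knockdown. *KLRK1-AS1*, opposite the gene of the NKG2D receptor of natural killer cells, rose from 0.685 ± 0.082 CPM (SD, n = 2) to 1.76 ± 0.417 CPM and 1.76 ± 0.202 CPM (n = 4 each), by 1.33 (adjusted p = 0.0021) and 1.35 (adjusted p = 0.0018) on the log2 scale, while *KLRK1* did not pass the count filter. *SLC25A30-AS1*, opposite the gene of a mitochondrial carrier, rose from 0.641 ± 0.276 CPM to 1.91 ± 0.246 CPM in *SMARCA1* knockdown, by 1.58 (adjusted p = 0.0036). In *SMARCA4* knockdown its value was 1.32 (adjusted p = 0.0097), a call lost without control replicate 2 (adjusted p = 0.1) or with siRNA A alone (0.79, adjusted p = 0.14).

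Among the falls, *OIP5-AS1* (chr15:41283990-41309737, plus strand), the conserved RNA also known as cyrano that promotes decay of miR-7, was the most abundant of those described next. It was at 154 and 141 CPM in the controls, 73.2, 107, 48.2 and 68.9 CPM in *SMARCA4* knockdown, and 43.9, 69.99, 37.8 and 37.9 CPM in *SMARCA1* knockdown. Every knockdown library was below the controls, and the libraries of *SMARCA1* siRNA C were the lowest. Its log2 fold change was -1.67 ± 0.20 (SE, adjusted p = 0.0002) in *SMARCA1* and -1.02 ± 0.20 (SE, adjusted p = 0.0026) in *SMARCA4* knockdown. *OIP5*, the gene of a centromere protein, had log2 fold changes of -0.95 ± 0.12 (SE, adjusted p = 0.00029) and -0.97 ± 0.12 (SE, adjusted p = 0.00021).

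*TNK2-AS1* (chr3:195908076-195913986, plus strand), opposite the gene of the tyrosine kinase ACK1, was at 2.59 and 2.53 CPM in the controls, 1.92, 2.33, 1.82 and 3.23 CPM in *SMARCA4* knockdown, and 1.16, 0.894, 0.736 and 0.569 CPM in *SMARCA1* knockdown. The *SMARCA1* libraries were below all the others, while those of *SMARCA4* knockdown overlapped the controls. Its log2 fold change was -1.64 ± 0.27 (SE, adjusted p = 0.00096) in *SMARCA1* and -0.15 ± 0.25 (SE, adjusted p = 0.67) in *SMARCA4* knockdown. *TMEM161B-AS1* was at 4.43 and 4.72 CPM in the controls, 2.86, 3.52, 1.79 and 4.03 CPM in *SMARCA4* knockdown, and 1.27, 1.99, 1.12 and 1.32 CPM in *SMARCA1* knockdown. The *SMARCA1* libraries were again apart below the rest except *SMARCA4* siRNA B replicate 1, which lay among them, and the log2 fold changes were -1.700 ± 0.30 (SE, adjusted p = 0.0014) and -0.59 ± 0.29 (SE, adjusted p = 0.12).

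*PXN-AS1*, whose exons share 1732 bases with *PXN*, the gene of the focal adhesion adaptor paxillin, was at 6.900 and 7.32 CPM in the controls, 5.38, 6.099, 3.18 and 4.105 CPM in *SMARCA4* knockdown, and 3.399, 2.397, 2.72 and 1.86 CPM in *SMARCA1* knockdown, and *PXN* at 67.6 and 65.5 CPM in the controls, 85.8, 85.2, 68.7 and 61.8 CPM in *SMARCA4* knockdown, and 122, 123, 96.8 and 103 CPM in *SMARCA1* knockdown. In *SMARCA1* knockdown the antisense libraries were all below and the sense libraries all above their controls, with log2 fold changes of -1.46 ± 0.20 (SE, adjusted p = 0.00035) and 0.73 ± 0.09 (SE, adjusted p = 0.00022). In *SMARCA4* knockdown *PXN-AS1* had a log2 fold change of -0.64 (adjusted p = 0.022), a call lost without either control library or *SMARCA4* siRNA A replicate 1 or *SMARCA4* siRNA B replicate 1 (adjusted p = 0.074 to 0.16) or with siRNA A alone (-0.31, adjusted p = 0.32). *CCNT2-AS1*, opposite the gene of a cyclin of the elongation factor P-TEFb, went from 3.203 ± 0.379 CPM (SD, n = 2) to 1.19 ± 0.134 CPM (n = 4) in *SMARCA1* knockdown, a log2 fold change of -1.43 (adjusted p = 0.00096), and *IQCH-AS1* from 8.16 ± 0.236 CPM to 3.16 ± 0.416 CPM, one of -1.37 (adjusted p = 0.00011). In *SMARCA4* knockdown these had log2 fold changes of -0.96 (adjusted p = 0.0067) and -0.57 (adjusted p = 0.0094), calls lost without control replicate 1 (adjusted p = 0.091) and without either control library (adjusted p = 0.063 to 0.097) or with siRNA A alone (-0.43, adjusted p = 0.075).

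The direct comparison of *SMARCA4* with *SMARCA1* knockdown takes its difference from the knockdown libraries, while the controls that chose the genes enter its estimate of the spread. Of the 304 genes, 85 (28.0%) were called, 47 higher (15.5%) and 38 lower (12.5%) in *SMARCA4* knockdown. The share called was 35.4% of all genes tested (16.3% higher and 19.1% lower) and 37.2% of those with at least 10 counts in each control (17.6% and 19.6%). In the middle level range the share was 27.0% of 152 antisense genes and 31.4% of 2500 other genes. At any level it was 21.2% of the -DT genes and 27.7% of the LINC genes. The count was 45 without *SMARCA1* siRNA C replicate 1 and 48 without *SMARCA4* siRNA B replicate 2, and it was 68 and 67 with control replicate 1 or 2 left out.

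Among genes at a mean of at least 1 CPM, the largest difference upwards was that of *TNK2-AS1*, at 1.49 ± 0.23 (SE, adjusted p = 0.0011) on the log2 scale, from the values given above. *TRG-AS1*, an antisense gene of the T cell receptor gamma locus, was at 2.01 and 1.78 CPM in the controls, 1.68, 1.41, 3.25 and 5.02 CPM in *SMARCA4* knockdown, and 0.868, 0.975, 1.18 and 1.08 CPM in *SMARCA1* knockdown. It was lower than control in every *SMARCA1* library, and in *SMARCA4* knockdown only the siRNA B libraries were above the controls. The difference between knockdowns was 1.303 ± 0.20 (SE, adjusted p = 0.00096). *SOCS2-AS1* differed by 1.298 ± 0.22 (SE, adjusted p = 0.0018), beside 0.98 ± 0.12 (SE, adjusted p = 0.00032) for *SOCS2*.

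*UGDH-AS1* (chr4:39528019-39594707, plus strand) lies opposite *UGDH*, whose enzyme makes the UDP-glucuronate used to inactivate androgens. *UGDH-AS1* was at 3.76 and 3.901 CPM in the controls, 3.91, 4.09, 3.55 and 4.49 CPM in *SMARCA4* knockdown, and 1.59, 1.79, 1.600 and 1.92 CPM in *SMARCA1* knockdown, with *SMARCA1* knockdown apart from both other groups, and *UGDH* was at 238 and 206 CPM in the controls, 549, 373, 689.9 and 458 CPM in *SMARCA4* knockdown, and 332, 345, 416 and 446 CPM in *SMARCA1* knockdown, above the controls in every knockdown library. The antisense gene differed between the knockdowns by 1.22 ± 0.14 (SE, adjusted p = 0.00029), with log2 fold changes against control of 0.06 (adjusted p = 0.78) in *SMARCA4* and -1.15 (adjusted p = 0.00059) in *SMARCA1* knockdown. Carried-over *UGDH* reads would be 5.700% of its counts at the median rate and 57.5% at the 90th percentile rate. *GATA6-AS1* had 0.952 ± 0.282 CPM (SD, n = 2) in the controls, 1.44 ± 0.085 CPM in *SMARCA4* and 0.668 ± 0.12 CPM in *SMARCA1* knockdown (n = 4 each). It differed by 1.12 ± 0.21 (SE, adjusted p = 0.003) between the knockdowns, although neither passed the test against control.

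*ADIRF-AS1* was at 1.46 and 1.78 CPM in the controls, 1.68, 1.32, 2.01 and 1.61 CPM in *SMARCA4* knockdown, and 0.759, 0.528, 0.768 and 0.719 CPM in *SMARCA1* knockdown, with *SMARCA1* knockdown below the other groups, and differed by 1.24 ± 0.21 (SE, adjusted p = 0.0017). It shares 677 exon bases with *ADIRF*, which was at 263 to 353 CPM, and carry-over at the median rate would give 123% of its counts, more than were counted. *ADIRF* differed by -0.14 (adjusted p = 0.32) between the knockdowns.

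Lower in *SMARCA4* knockdown was *MIF-AS1*, with a log2 difference of -1.53 ± 0.36 (SE, adjusted p = 0.0091), a call lost without *SMARCA1* siRNA C replicate 1 (adjusted p = 0.051). *FAM222A-AS1* differed by -1.17 ± 0.21 (SE, adjusted p = 0.0026). *USP3-AS1*, opposite the gene of a histone deubiquitinase, was at 1.76 and 1.75 CPM in the controls, 0.594, 1.26, 0.494 and 0.631 CPM in *SMARCA4* knockdown, and 1.84, 2.03, 1.15 and 1.32 CPM in *SMARCA1* knockdown. Its *SMARCA4* libraries ran lower, with siRNA A replicate 2 among the *SMARCA1* values, and the difference was -1.09 ± 0.24 (SE, adjusted p = 0.0072). Carried-over *USP3* reads would be 6.46% of its counts at the median rate and 65.2% at the 90th percentile rate.

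*EMC3-AS1*, opposite the gene of a subunit of the endoplasmic reticulum membrane complex, was at 7.86 and 7.17 CPM in the controls, 6.46, 5.34, 5.84 and 4.84 CPM in *SMARCA4* knockdown, and 13.8, 12.6, 8.03 and 8.57 CPM in *SMARCA1* knockdown. *SMARCA1* knockdown lay above *SMARCA4* knockdown in every library, siRNA A most, and the difference was -0.90 ± 0.12 (SE, adjusted p = 0.00041). *DDN-AS1* differed by -0.93 ± 0.21 (SE, adjusted p = 0.0078).

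**Figure D4:**
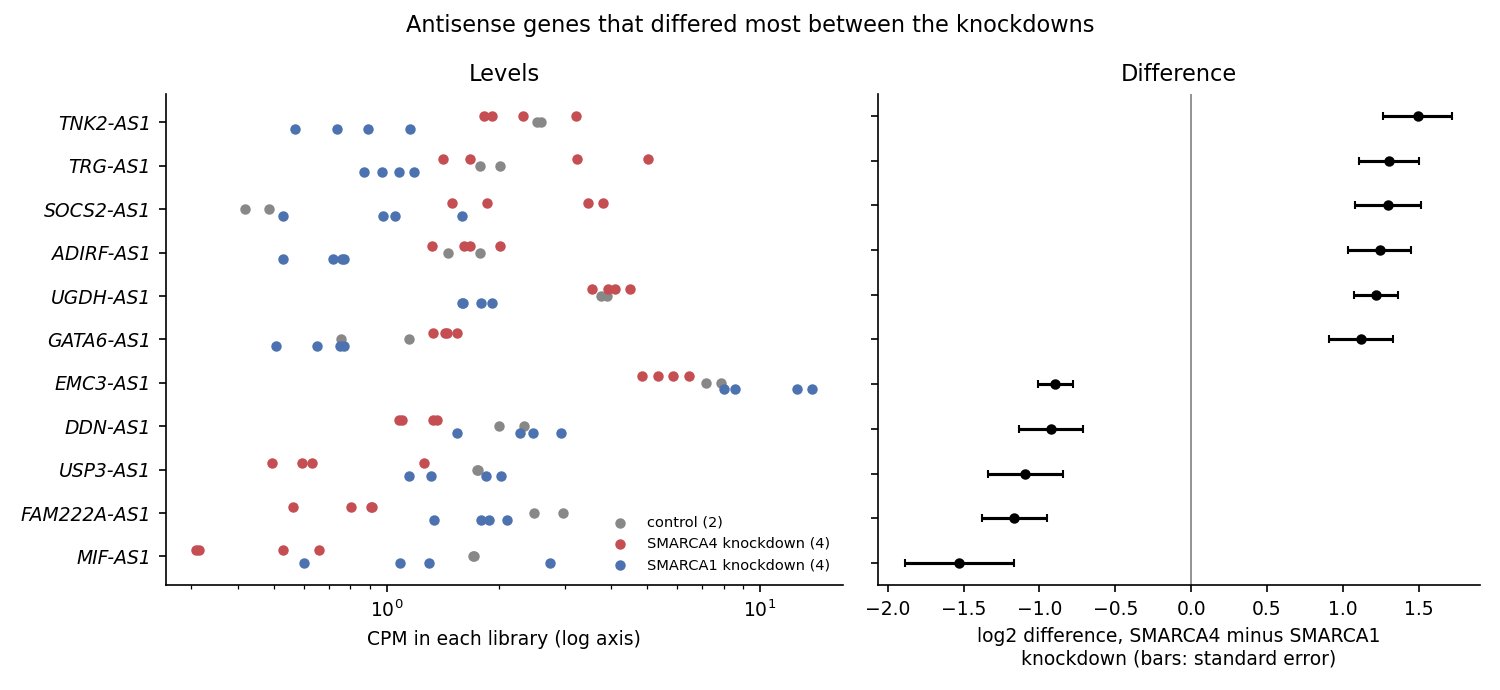
Left, level in CPM (log axis) in each library of 11 antisense genes with the largest called differences between the knockdowns at a mean of at least 1 CPM (6 higher and 5 lower in *SMARCA4* knockdown). Right, their log2 difference, *SMARCA4* minus *SMARCA1* knockdown, with standard errors, from 1.49 for *TNK2-AS1* to -1.53 for *MIF-AS1*.

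Between *SMARCA4* siRNA A and siRNA B, 15 of the 304 genes (4.93%) were called, 5 higher and 10 lower with siRNA A, beside 6.2% of all genes tested (3.04% and 3.17%). This count was not stable, at 0 without *SMARCA4* siRNA A replicate 2, 1 without either siRNA B library, 5 without either control, 4 without either *SMARCA1* siRNA C library and 31 without either *SMARCA1* siRNA A library. *VPS9D1-AS1* had the smallest adjusted p, 0.009, with a log2 fold change against control of -1.27 for siRNA A and -2.46 for siRNA B. *TRG-AS1* went in different directions, -0.29 (adjusted p = 0.44) for siRNA A and 1.12 (adjusted p = 0.0052) for siRNA B. *SCAMP1-AS1* rose with both, by 2.099 and 2.877 on the log2 scale, and *B3GALT5-AS1* by 1.22 and 2.05. Between *SMARCA1* siRNA A and siRNA C none of the 304 genes was called by edgeR, beside 0.0118% of all genes tested, with 46 at an unadjusted p below 0.05 and 6 called by DESeq2. It was 12 without *SMARCA1* siRNA A replicate 2, 3 without *SMARCA1* siRNA A replicate 1, 4 without either *SMARCA4* siRNA A library and 0 without any other library.

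For 271 genes the sense gene was tested as well. In *SMARCA4* knockdown both genes of a pair were called in the same direction in 38 pairs and in opposite directions in 13, the antisense gene alone in 45, the sense gene alone in 74 and neither in 101. In *SMARCA1* knockdown these numbers were 35, 14, 64, 77 and 81. These classes were not counted over other opposite-strand neighbours, so the numbers are a description. Across pairs, the log2 fold changes of antisense and sense gene had a Pearson r of 0.398 and a Spearman rho of 0.299 in *SMARCA4* knockdown and 0.21 and 0.205 in *SMARCA1* knockdown (n = 271). Over 5643 pairs of opposite-strand neighbours of any name, the 271 included, the values were 0.258 and 0.162, and 0.253 and 0.179. Called or not, both changes of a pair had the same sign in 55.4% of the 271 and 55.3% of the 5643 in *SMARCA4* knockdown. In *SMARCA1* knockdown the shares were 53.9% and 56.6%. These are descriptions across genes of the same libraries, which share depth and reads of overlapping exons. In the 207 pairs with exon overlap the Pearson r was 0.403 and 0.226 and the Spearman rho 0.275 and 0.211. In the 33 pairs in introns the Pearson r was 0.35 and 0.063 and the Spearman rho 0.335 and 0.044. In the 30 head-to-head pairs the Pearson r was 0.484 and 0.421 and the Spearman rho 0.292 and 0.435. Both genes were called in 4 and 2 of these 30 pairs, each time in the same direction. The antisense gene alone was called in 6 and 7, the sense gene alone in 8 and 8, and neither in 12 and 13.

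The ratio of antisense to sense gene, tested with limma on the log2 difference of their CPM, was called in 86 of 271 pairs (31.7%) in *SMARCA4* knockdown, 21 higher and 65 lower, beside 42.3% of the 5643 neighbour pairs. In *SMARCA1* knockdown it was called in 100 (36.9%), 29 higher and 71 lower, beside 41.9%. The median ratio change was -0.28 and -0.32. Between the knockdowns 73 ratios (26.9%) were called, 35 higher and 38 lower, beside 32.9%. Without control replicate 1 the first counts were 46 and 53, and without control replicate 2 they were 51 and 59. Between the knockdowns 46 were called without *SMARCA4* siRNA B replicate 2.

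**Figure D5:**
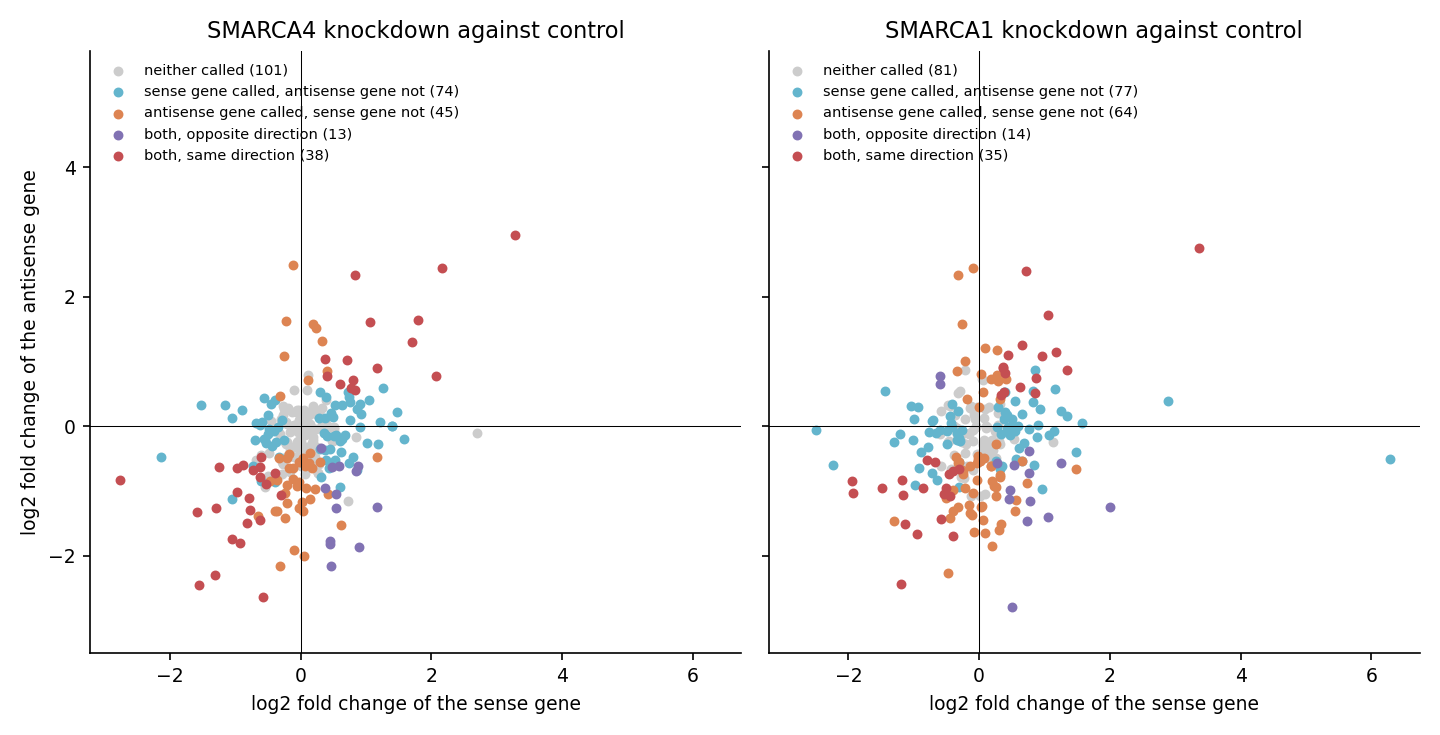
Log2 fold change against control of the antisense gene (vertical) and of its sense gene (horizontal) for 271 pairs in each knockdown, coloured by which of the genes was called. In *SMARCA4* knockdown 38 pairs lie in the same-direction class and 13 in the opposite-direction class, and in *SMARCA1* knockdown 35 and 14.

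Pairs that moved together were led by *IRF1* and *SOCS2*, described above, and by *C8orf34*, whose sense gene had log2 fold changes of -1.32 (adjusted p = 0.00026) and -1.200 (adjusted p = 0.00051). *DDN-AS1* and *DDN*, the gene of the cytoskeletal protein dendrin, were both lower in *SMARCA4* knockdown but not by the same amount. *DDN-AS1* was at 2.34 and 2.01 CPM in the controls and 1.08, 1.100, 1.33 and 1.37 CPM in *SMARCA4* knockdown, and *DDN* at 31.2 and 33.4 CPM in the controls and 6.53, 5.94, 4.02 and 3.19 CPM in *SMARCA4* knockdown. The log2 fold change was -0.84 ± 0.26 (SE, adjusted p = 0.023) for the antisense and -2.76 ± 0.12 (SE, adjusted p = 5.5e-07) for the sense gene, and the ratio rose by 1.95 ± 0.26 (SE, adjusted p = 8.6e-05). The call of *DDN-AS1* was lost without either control library or either *SMARCA4* siRNA A library or either *SMARCA4* siRNA B library (adjusted p = 0.051 to 0.18) or with siRNA B alone (-0.69, adjusted p = 0.088).

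In *SMARCA1* knockdown *OTUD6B-AS1* and *OTUD6B*, the gene of a deubiquitinase, were lower, with log2 fold changes of -0.85 ± 0.11 (SE, adjusted p = 0.00025) and -1.94 ± 0.13 (SE, adjusted p = 7e-06), and *OTUD6B-AS1* was at 43.8 and 41.9 CPM in the controls and 25.3, 23.3, 24.3 and 22.3 CPM in *SMARCA1* knockdown. All 4 libraries were below both controls. *SLC9A3-AS1* and *SLC9A3*, the gene of a sodium-hydrogen exchanger, changed by -1.03 ± 0.21 (SE, adjusted p = 0.0027) and -1.93 ± 0.21 (SE, adjusted p = 0.00013). *B3GALT5*, whose antisense gene rose in both knockdowns, rose by 1.79 (adjusted p = 0.00013) in *SMARCA4* and 1.05 (adjusted p = 0.0024) in *SMARCA1* knockdown, and *TTC39A* by 0.83 (adjusted p = 0.0019) and 0.71 (adjusted p = 0.0043).

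Pairs called in opposite directions had a lower antisense and a higher sense gene in all those named. They were *VPS9D1*, *ZNF710*, *FAM222A*, *RBM15* and *BCAR3* in *SMARCA4* knockdown and *ZNF710*, *PXN*, *UGDH*, *SH3BP5* and *ID2* in *SMARCA1* knockdown. *ID2-AS1*, opposite the gene of a helix-loop-helix inhibitor, was at 20.95 and 21.3 CPM in the controls and 8.57, 9.75, 10.6 and 9.86 CPM in *SMARCA1* knockdown, and *ID2* at 142 and 127 CPM in the controls and 174, 153, 196 and 218 CPM in *SMARCA1* knockdown. All antisense libraries were below and all sense libraries above the controls, with log2 fold changes of -1.12 ± 0.14 (SE, adjusted p = 0.00025) and 0.45 ± 0.16 (SE, adjusted p = 0.038). *SH3BP5-AS1* had -0.57 (adjusted p = 0.032) beside 1.25 (adjusted p = 0.0002) for *SH3BP5*, the antisense call being lost without either control library or either *SMARCA4* siRNA B library or *SMARCA1* siRNA A replicate 1 or either *SMARCA1* siRNA C library (adjusted p = 0.054 to 0.18), with siRNA A alone (-0.46, adjusted p = 0.13), by DESeq2 (0.099), with only the knockdown and control libraries (0.055) or with no filter on low counts (0.074).

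In *SMARCA4* knockdown *FAM222A-AS1* fell as given above while *FAM222A* rose by 0.45 (adjusted p = 0.01), and the ratio changed by -2.16 ± 0.25 (SE, adjusted p = 2.9e-05). *BCAR3-AS1*, opposite the gene of an adaptor of p130Cas signaling, had a log2 fold change of -0.69 ± 0.14 (SE, adjusted p = 0.0031), a call lost without control replicate 1 (adjusted p = 0.068) or with siRNA B alone (-0.35, adjusted p = 0.11), and *BCAR3* of 0.85 ± 0.19 (SE, adjusted p = 0.0055). *RBM15-AS1*, opposite the gene of a subunit of the m6A writer, had -1.04 ± 0.25 (SE, adjusted p = 0.007), a call lost without either control library (adjusted p = 0.051 to 0.063), and *RBM15* 0.54 ± 0.15 (SE, adjusted p = 0.015).

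In other pairs with a called ratio the sense gene was called and the antisense gene was not. *LPP-AS2* was at 3.55 and 4.79 CPM in the controls, 5.52, 5.53, 4.698 and 5.403 CPM in *SMARCA4* knockdown, and 4.95, 4.96, 2.75 and 3.81 CPM in *SMARCA1* knockdown, with overlapping groups, while *LPP*, the gene of a LIM protein of focal adhesions, was at 179 and 156 CPM in the controls, 48.4, 101, 34.8 and 55.5 CPM in *SMARCA4* knockdown, and 22.2, 50.9, 22.5 and 25.3 CPM in *SMARCA1* knockdown, below the controls in every knockdown library. The ratio rose by 1.94 ± 0.35 (SE, adjusted p = 0.00078) and 2.51 ± 0.35 (SE, adjusted p = 0.00014). *PRKAR2A-AS1*, opposite the gene of a regulatory subunit of protein kinase A, had a log2 fold change of 0.55 (adjusted p = 0.087) in *SMARCA1* knockdown, *PRKAR2A* one of -1.44 (adjusted p = 0.00011) and the ratio one of 1.98 (adjusted p = 0.00036). *AGAP2-AS1* in *SMARCA4* knockdown had 0.34 (adjusted p = 0.32), *AGAP2* -1.16 (adjusted p = 0.00017) and their ratio 1.51 (adjusted p = 0.00028).

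The 5 largest rises and the 5 largest falls of the ratio in each knockdown were taken at a mean of at least 1 CPM of the antisense gene. In *SMARCA4* knockdown the falls included *VPS9D1-AS1* with -2.71 (adjusted p = 1.3e-06), *ZNF710-AS1* with -2.71 (adjusted p = 0.00013), *PRRT3-AS1* with -2.01 (adjusted p = 0.00021) and *ANKRD34C-AS1* with -1.78 (adjusted p = 0.0022). In *SMARCA1* knockdown they were *ZNF710-AS1* with -3.26 (adjusted p = 4.5e-05), *SDCBP2-AS1* with -2.39 (adjusted p = 0.0016), *PXN-AS1* with -2.19 (adjusted p = 2.1e-05), *UGDH-AS1* with -1.91 (adjusted p = 0.00015) and *NUTM2B-AS1* with -1.86 (adjusted p = 0.0074). *SDCBP2*, the gene of syntenin-2, rose from 0.92 and 0.892 CPM in the controls to 3.13 to 8.84 CPM in *SMARCA1* knockdown. *SLC25A30-AS1* rose against *SLC25A30* in *SMARCA1* knockdown by 1.78 (adjusted p = 0.00022).

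Lists of antisense genes were drawn up from what is known of their sense genes. Of 24 listed antisense genes of interferon, antigen presentation and immune genes, 4 were expressed. Only *IRF1-AS1* was higher, in both knockdowns, and the list medians were -0.19 and -0.07 on the log2 scale against 0.00 over all genes tested. Over all genes tested, 22.8% were higher and 22.3% lower in *SMARCA4* knockdown and 23.8% and 23.0% in *SMARCA1* knockdown. *TRIM52-AS1* was lower in *SMARCA4* knockdown, at -0.65 (adjusted p = 0.019), a call lost without either control library or *SMARCA4* siRNA A replicate 1 or *SMARCA4* siRNA B replicate 1 (adjusted p = 0.056 to 0.17) or with siRNA A alone (-0.56, adjusted p = 0.079). *CD27-AS1* had -0.17 (adjusted p = 0.41) and -0.07 (adjusted p = 0.75), and *TRAF3IP2-AS1* -0.20 (adjusted p = 0.51) and -0.08 (adjusted p = 0.81).

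Of 47 listed antisense genes of chromatin and transcription regulators, 15 were expressed. In *SMARCA4* knockdown 1 was higher and 5 lower, in *SMARCA1* knockdown 1 and 4, and the medians were -0.07 and -0.21. Over all genes tested, 22.8% were higher and 22.3% lower in the first and 23.8% and 23.0% in the second. *KMT2E-AS1* was the higher one in *SMARCA1* knockdown, at 0.74 (adjusted p = 0.038), a call lost without either control library or *SMARCA1* siRNA A replicate 1 or either *SMARCA1* siRNA C library (adjusted p = 0.051 to 0.17), with siRNA A alone (0.74, adjusted p = 0.072), with siRNA C alone (0.73, adjusted p = 0.06) or with upper quartile scaling (0.053). *ZNF337-AS1* had -1.08 (adjusted p = 0.0015) in *SMARCA1* and -0.64 (adjusted p = 0.02) in *SMARCA4* knockdown, the latter call lost without either control library or *SMARCA4* siRNA A replicate 1 or *SMARCA4* siRNA B replicate 1 (adjusted p = 0.065 to 0.14) or with siRNA A alone (-0.64, adjusted p = 0.051).

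Called lower in both knockdowns were also *FOXN3-AS1* and *TBX2-AS1*. *FOXN3-AS1* had -0.79 (adjusted p = 0.0084) in *SMARCA4* knockdown, a call lost without control replicate 2 (adjusted p = 0.14) or with siRNA A alone (-0.58, adjusted p = 0.076). In *SMARCA1* knockdown it had -0.84 (adjusted p = 0.0063), a call lost without control replicate 2 (adjusted p = 0.1) or with siRNA A alone (-0.59, adjusted p = 0.073). *TBX2-AS1* had -1.46 (adjusted p = 0.025) in *SMARCA4* knockdown, a call lost without either control library or *SMARCA4* siRNA A replicate 1 or *SMARCA4* siRNA B replicate 1 (adjusted p = 0.067 to 0.23), with siRNA A alone (-1.17, adjusted p = 0.11) or by DESeq2 (0.078), and -2.27 (adjusted p = 0.0044) in *SMARCA1* knockdown, a call lost without control replicate 2 (adjusted p = 0.064). *KDM4A-AS1*, opposite the gene of a histone demethylase, was lower in *SMARCA4* knockdown, at -1.26 (adjusted p = 0.021), a call lost without either control library or *SMARCA4* siRNA A replicate 1 or *SMARCA4* siRNA B replicate 2 (adjusted p = 0.063 to 0.12), with siRNA B alone (-1.02, adjusted p = 0.082) or by DESeq2 (0.098). Between the knockdowns *PAX8-AS1* was lower in *SMARCA4* knockdown, at -0.43 (adjusted p = 0.0071), as was *NR2F1-AS1*, at -0.65 (adjusted p = 0.019), a call lost without *SMARCA4* siRNA A replicate 1 or *SMARCA4* siRNA B replicate 2 or *SMARCA1* siRNA C replicate 1 (adjusted p = 0.055 to 0.076).

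Of 45 listed antisense RNAs that have been studied in cancer, 27 were expressed, and 4 were higher and 9 lower in each knockdown, with medians of -0.38 and -0.29. Over all genes tested, 22.8% and 23.8% were higher and 22.3% and 23.0% lower. *MCM3AP-AS1* was at 14.97 and 14.97 CPM in the controls, 7.33, 10.03, 5.22 and 5.58 CPM in *SMARCA4* knockdown, and 5.39, 6.87, 7.01 and 5.99 CPM in *SMARCA1* knockdown, all knockdown libraries below the controls, with log2 fold changes of -1.13 ± 0.15 (SE, adjusted p = 0.00031) and -1.25 ± 0.16 (SE, adjusted p = 0.00023). *LOXL1-AS1* was at 13.9 and 10.8 CPM in the controls, 8.59, 10.2, 9.98 and 10.8 CPM in *SMARCA4* knockdown, and 6.44, 6.22, 5.09 and 7.19 CPM in *SMARCA1* knockdown, with *SMARCA1* knockdown lowest, and had log2 fold changes of -0.33 ± 0.17 (SE, adjusted p = 0.13) and -0.99 ± 0.17 (SE, adjusted p = 0.001). *THUMPD3-AS1* had -0.83 (adjusted p = 0.0008) in *SMARCA1* knockdown.

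*UBA6-AS1*, head to head with the gene of a ubiquitin-activating enzyme, was at 16.3 and 14.8 CPM in the controls, 27.4, 26.4, 31.2 and 27.8 CPM in *SMARCA4* knockdown, and 21.9, 19.3, 23.9 and 25.2 CPM in *SMARCA1* knockdown, all knockdown libraries above the controls, with log2 fold changes of 0.86 ± 0.11 (SE, adjusted p = 0.00022) and 0.53 ± 0.11 (SE, adjusted p = 0.0033). *SPINT1-AS1* had 0.72 (adjusted p = 0.0041) and 0.60 (adjusted p = 0.0098), the latter call lost without control replicate 1 (adjusted p = 0.082). *TP73-AS1*, opposite the gene of the p53 relative p73 and among the more abundant at 62.1 ± 0.904 CPM (SD, n = 2) in the controls, had 0.04 (adjusted p = 0.73) and 0.11 (adjusted p = 0.32). Between the knockdowns 7 of the 27 were higher and 5 lower in *SMARCA4* knockdown, beside 16.3% and 19.1% of all genes tested. Among them *TMPO-AS1* differed by -0.79 (adjusted p = 0.0022) and *ARRDC1-AS1* by -0.46 (adjusted p = 0.0061).

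RefSeq held a promoter window, 250 bases before to 50 bases after the start, for 230 of the 304 genes. On either strand, the core of an interferon-stimulated response element, GAAA repeated after any 2 bases, was in 2.61% of these and in 3.65% of all 27305 windows. The gamma-activated site core, TTCNNNGAA, was in 6.96% and 7.88%, and the E-box CACGTG, which MYC can bind, in 9.13% and 7.43%. No motif holds another whole, and matches of different motifs can share bases. Of the antisense genes lower in *SMARCA1* knockdown 15.2% (10 of 66) held CACGTG, and of those lower in *SMARCA4* knockdown 11.7% (7 of 60), against 2 of 28 and 0 of 17 of those higher. The gamma-activated site core was in 7 of 66 and 6 of 60 genes lower in *SMARCA1* and *SMARCA4* knockdown, and in 2 of 28 and 0 of 17 of those higher. The interferon element core was in 1 of 17 and 2 of 28 genes higher in *SMARCA4* and *SMARCA1* knockdown and in 1 of 60 and 1 of 66 of those lower. These are matches of letters, not measured sites.

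The windows of *DIP2C-AS1*, which was higher in both knockdowns, *CCNT2-AS1*, which was lower in both, *OIP5-AS1* and *TNK2-AS1* are shown as examples of large changes whose window holds such letters, chosen after the values were seen. They are given as before, in the part outside exons of coding genes. The match is in capitals, the interferon element core in the first pair, on the reverse strand in *CCNT2-AS1*, and CACGTG in the others. For *DIP2C-AS1* and *CCNT2-AS1* the start in the count files differs from that in RefSeq. By the count files, the match of each lies inside the gene, after its start.
*DIP2C-AS1* promoter, chr10:649785-650084, plus strand: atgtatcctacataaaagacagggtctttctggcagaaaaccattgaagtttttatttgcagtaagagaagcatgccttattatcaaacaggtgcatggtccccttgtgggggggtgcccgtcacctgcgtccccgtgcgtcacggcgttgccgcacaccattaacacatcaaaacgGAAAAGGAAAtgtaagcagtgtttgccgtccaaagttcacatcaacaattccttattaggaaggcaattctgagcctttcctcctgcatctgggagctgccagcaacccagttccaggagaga
*CCNT2-AS1* promoter, chr2:134918557-134918821, minus strand: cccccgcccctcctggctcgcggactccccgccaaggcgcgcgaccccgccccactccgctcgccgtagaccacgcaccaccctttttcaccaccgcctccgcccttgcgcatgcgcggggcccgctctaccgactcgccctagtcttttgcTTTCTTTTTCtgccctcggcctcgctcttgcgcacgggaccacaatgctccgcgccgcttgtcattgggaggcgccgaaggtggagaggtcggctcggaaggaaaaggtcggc
*OIP5-AS1* promoter, chr15:41283740-41284039, plus strand: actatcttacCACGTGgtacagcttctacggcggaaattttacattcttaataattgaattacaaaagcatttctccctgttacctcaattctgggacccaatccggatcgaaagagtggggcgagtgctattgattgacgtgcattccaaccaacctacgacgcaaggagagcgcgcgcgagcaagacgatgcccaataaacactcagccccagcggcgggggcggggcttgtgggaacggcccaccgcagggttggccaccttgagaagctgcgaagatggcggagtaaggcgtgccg
*TNK2-AS1* promoter, chr3:195907826-195908125, plus strand: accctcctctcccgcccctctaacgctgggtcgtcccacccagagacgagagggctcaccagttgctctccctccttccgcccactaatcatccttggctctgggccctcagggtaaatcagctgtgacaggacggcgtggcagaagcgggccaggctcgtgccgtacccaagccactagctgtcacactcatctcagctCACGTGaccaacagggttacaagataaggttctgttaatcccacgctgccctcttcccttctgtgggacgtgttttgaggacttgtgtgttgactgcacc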

How the data were processed

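VCaP cells were transfected in culture and polyadenylated RNA was made into directional libraries. The authors aligned paired-end reads with HISAT2 2.1.0 to hg38 and counted them per gene on the annotated strand with featureCounts 1.5.2, and the deposited values are raw counts, 1 file per library. The groups came from the sample labels. Positions are those of the count files.

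Genes that passed filterByExpr were tested on the deposited counts with edgeR 4.0.16 in R 4.3.3 (TMM scaling, quasi-likelihood test, 5 groups, a knockdown being the mean of its 2 siRNAs), with Benjamini-Hochberg adjustment over all genes tested and a threshold of 0.05. CPM are TMM-scaled. Antisense to sense ratios were tested with limma 3.58.1 on log2 CPM (prior count 2). The pairs were all opposite-strand genes that overlap or lie within 5000 bases, and the antisense genes with their sense genes at any distance. All were adjusted together. DESeq2 1.42.0, other scalings, filters, count thresholds and leaving out each library were tried as alternatives. An alternative without genes of high possible carry-over was chosen after seeing the data. The scripts were tested on simulated data.

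Members and lists were chosen with earlier results of these data known. Genes were named by these rules, at a mean of at least 1 CPM: the 8 largest rises and falls called with both siRNAs of a knockdown, the 6 largest differences between knockdowns in each direction, and the 5 largest ratio changes and concordant or opposite pairs, besides the 8 highest per kilobase and list members. Some genes that meet these rules are not reported here. Intervals of counting error were not used, since replicate libraries differed by more than counting error. The chi-square per gene was 6.4 in the controls and 42.9 and 22.6 for *SMARCA4* siRNA A and B. It was 60.6 and 3.80 for *SMARCA1* siRNA A and C. The edgeR test took a spread shared by the 5 groups, so it did not allow for this inequality.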

Additional observations from a re-analysis of the deposited data

Results flagged for a closer look

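Some single libraries stood apart within the 4 libraries of a knockdown, by a gap to the nearest other library that exceeded Dixon's 95% critical value for its share of the range. This happened in 6 of 94 groups of 4 libraries over 47 named genes. The 4 libraries came from different siRNAs, and many of the genes were picked for their changes in them. The number can therefore not be set against chance. *LPP-AS2* was at 4.698 CPM in *SMARCA4* siRNA B replicate 1 against 5.403 to 5.533 CPM in the others, and *WAC-AS1* at 26.366 CPM in *SMARCA4* siRNA A replicate 1 against 30.785 to 31.33 CPM. *PRRT3-AS1* was at 1.446 CPM in *SMARCA4* siRNA A replicate 2 against 0.491 to 0.629 CPM, and at 1.88 CPM in *SMARCA1* siRNA A replicate 1 against 0.8 to 0.975 CPM. In *SMARCA1* siRNA A replicate 2, *ELF3-AS1* was at 38.307 CPM against 51.924 to 54.462 CPM in the others, and *FGD5-AS1* at 232.075 CPM against 153.131 to 162.14 CPM.

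The siRNAs against *SMARCA4* differed in 15 antisense genes (edgeR, adjusted p between 0.009 and 0.048). Of the 14 given here, lower with siRNA A than with siRNA B, by the log2 difference given, were *TRG-AS1* (-1.415), *PRKAR2A-AS1* (-1.292), *NINJ2-AS1* (-1.286), *SOCS2-AS1* (-1.112), *MAP3K14-AS1* (-0.88), *B3GALT5-AS1* (-0.83), *SCAMP1-AS1* (-0.778), *BCAR3-AS1* (-0.676) and *ZNF350-AS1* (-0.616). Higher with siRNA A were *PRKAG2-AS1* (1.272), *VPS9D1-AS1* (1.188), *MYLK-AS1* (1.138), *TMPO-AS1* (0.822) and *SLC5A4-AS1* (0.599). *PRKAR2A-AS1* had a log2 fold change against control of -0.395 with siRNA A and 0.897 with siRNA B, and *NINJ2-AS1* of -1.248 and 0.037.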

How the results depend on the processing

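Leaving out 1 library at a time gave 49 to 109 antisense genes called in *SMARCA4* knockdown (102 with all libraries), 60 to 123 in *SMARCA1* knockdown (124), 45 to 94 between the knockdowns (85), 0 to 31 between the *SMARCA4* siRNAs (15) and 0 to 12 between the *SMARCA1* siRNAs (0). The pair ratios gave 46 to 107 (86), 53 to 114 (100) and 46 to 94 (73), in the order *SMARCA4*, *SMARCA1* and between the knockdowns. With a control left out the other control stood alone and was assumed to vary like the other groups. With no filter on low counts, 28 genes were called between the *SMARCA4* siRNAs and 18 between the *SMARCA1* siRNAs, and DESeq2 called 6 of the latter. The causes were not tested. Under the other alternatives these counts stayed within 1.5 times, DESeq2 giving 85, 104 and 67 in the first 3 comparisons, and without the 12 genes of over 10% possible carry-over at the median rate 96, 121 and 81. Of 141 called values of named genes, 85 were never lost when a library was left out and 102 were never lost under the other alternatives, and none changed sign.

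The deviations of replicate 1 from its group mean were correlated between groups. Of 10 such correlations 3 were above 0.1, and the range was -0.103 to 0.362. These values do not settle whether the replicate numbers pair the libraries. With replicate number as a block, 107, 123 and 89 genes were called in the first 3 comparisons, 16 and 0 between siRNAs, and 90, 105 and 79 pair ratios. Depth limits the least abundant genes, since the threshold of 10 counts lies close to the floor of 3 counts.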
